A study of Mus musculus with 2 samples.

Results

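The 10 genes described here encode the interleukin-33 receptor ST2 (Il1rl1), its ligand (Il33), the interleukin-1 receptor (Il1r1) and the co-receptor of both (Il1rap), the cytokines interleukin-6, interleukin-11 and leukaemia inhibitory factor (Il6, Il11, Lif), their shared receptor subunit gp130 (Il6st), and the NF-kB inhibitor and subunit Nfkbia and Nfkb1. They were chosen by symbol from the 32285 genes of the deposited table, and all 10 were found. The study put cultured mouse aortic vascular smooth muscle cells (VSMCs) from C57BL/6 mice through 1 droplet run of single-cell RNA sequencing, with an antibody hashtag library from the same cells to mark the culture of origin. Of the 2472397 barcodes, 13045 held at least 2218 gene transcripts (counted as unique molecular identifiers, UMIs) and at least 200 genes, and these cells held 115033686 UMIs with a median of 7915. A cell was given tag 1, 2, 3 or 4 when that hashtag alone was above its cutoff of 36, 52, 61 or 41 UMIs, which gave 3144, 497, 1500 and 1529 cells, while 5307 cells had no tag above its cutoff and 1068 had more than 1.

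By the numbers in the drawing of the study's design, tag 1 is young VSMCs from mice of 12 weeks, tag 2 old VSMCs from mice of 58 to 78 weeks, tag 3 young VSMCs with 100 nM angiotensin II (AngII, a vasoconstrictor peptide) for 48 h, and tag 4 old VSMCs transfected with 20 nM siRNA against the mechanosensitive channel Piezo1. The labels name a non-targeting siRNA pool as the control for transfection and do not say which tag received it. Neither do they pair a hashtag with a culture, so the tag number comes first in what follows. Each tag is 1 culture, and the number of mice behind it was not stated in the sources used here. A difference between tags therefore has no replicate check: every interval below is a 95% interval for counting error only, and no p-value is given.

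These pathways carry danger and growth signals into stromal cells. IL-33 is released from the nucleus of damaged barrier and stromal cells and binds ST2, which pairs with the co-receptor encoded by Il1rap and activates NF-kB through MyD88, as the IL-1 receptor does. Il1rl1 also gives a soluble form of ST2 that catches IL-33 as a decoy, and the gene was first cloned as one that fibroblasts switch on when serum makes them grow. IL-6, IL-11 and LIF all signal through gp130 to JAK kinases and STAT3, and NF-kB induces Nfkbia, whose product IkB-alpha holds NF-kB back.

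Before the members, several measurements bear on every comparison of tags. First, the hashtags of tags 2 to 4 were weak, and that of tag 1 stood further from background. The median count of tag 1 was 364 UMIs in its own cells and 10 in cells without a tag. These medians were 76 and 15 for tag 2, 113 and 31 for tag 3 and 67 and 20 for tag 4. Next, the tags differed in markers of sex. Cells with UMIs of Xist, the RNA of the inactive X chromosome in females, and none of 4 Y-linked genes were 4.90% of tag 1, 63.0% of tag 2, 6.27% of tag 3 and 66.8% of tag 4, whereas cells with Y-linked and no Xist UMIs were 54.1%, 19.5%, 55.5% and 13.8%. Age and sex therefore cannot be told apart over all cells, and most ratios between tags are also given within the Xist cells and the Y-linked cells, as these are called below. Further, tag 1 had the lowest median depth, 6816.5 UMIs against 9453.5 to 10663 in the others, and the median share of mitochondrial UMIs was 0.224% in tag 3 (AngII) against 1.08%, 1.84% and 1.86% in tags 1, 2 and 4. The part of either in the results was not tested. In addition, Piezo1 was at 86.9 CPM (UMIs per 1000000) in the cells labelled siPiezo1 (tag 4) and 89.6 in tag 2, a ratio of 0.969 (0.874 to 1.08), so the siRNA's target does not check the label of tag 4. Tag 1 also lay largely in cell clusters of its own, which are described below. Of its 3144 cells, 1733 were in a cluster led by Ifit3, 527 in one led by Cdkn3 and 163 in one led by Cxcl10. Tag 2 had 0 cells in each of them. Interferon-induced genes (Ifit3, Ifi206 and Cxcl10) were among the leading genes of these clusters. The part of this in the ratios to tag 1 was not tested. Finally, the cells were checked against markers. The 9 VSMC markers summed to between 1654 and 3174 CPM over the 4 tags, although Myh11, the smooth muscle myosin of contractile cells, stood at 1.94 to 7.89 CPM, and 6 fibroblast markers summed to 525 to 749 CPM. Immune cells are the best known carriers of ST2, and their defining markers were at or near 0: 6 mast cell markers summed to at most 0.912 CPM, Cd3e, Cd3g and C1qa had no UMI in any tag, 7 macrophage markers summed to 16.1 to 26.0 CPM, and 6 markers of T cells and type 2 innate lymphoid cells to 10.6 to 22.5 CPM, nearly all of it Thy1. The 6 endothelial markers summed to 4.49 to 9.04 CPM.

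Il1rl1 was the member that differed most over the tags in CPM. Its gene (ENSMUSG00000026069) lies on the plus strand at chr1:40429570-40465415 of GRCm38 in the GENCODE vM21 annotation, and has 5 protein-coding transcripts with 5 different 3′ ends. The counts are per gene, so the membrane-bound and the soluble form of ST2 cannot be told apart in them. RefSeq gives Il1rl1 2 start sites, and the 250 bases before each are shown because 3′ counts do not tell which was used, together with those of Lif, the member whose level over cell clusters was most like that of Il1rl1, and of Il6 and Nfkbia, the members with an NF-kB motif nearest the start. Capitals mark the NF-kB consensus motif and the AP-1 motif TGANTCA on either strand, which were chosen with the windows in view and do not overlap in them. The sequences read 5′ to 3′ on the gene's strand and are RefSeq's, build GRCm38.p6.
Il1rl1 first start, chr1:40429320-40429569, plus strand: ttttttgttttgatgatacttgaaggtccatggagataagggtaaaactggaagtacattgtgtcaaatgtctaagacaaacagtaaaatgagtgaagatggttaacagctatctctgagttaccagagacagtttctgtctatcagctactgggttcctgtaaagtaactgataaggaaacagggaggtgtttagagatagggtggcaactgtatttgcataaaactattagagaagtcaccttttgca
Il1rl1 second start, chr1:40439379-40439628, plus strand: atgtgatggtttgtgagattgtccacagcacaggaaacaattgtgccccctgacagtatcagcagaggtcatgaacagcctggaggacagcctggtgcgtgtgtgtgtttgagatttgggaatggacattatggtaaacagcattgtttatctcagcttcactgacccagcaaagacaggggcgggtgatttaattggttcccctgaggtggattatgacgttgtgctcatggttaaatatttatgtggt
Lif, chr11:4257318-4257567, plus strand: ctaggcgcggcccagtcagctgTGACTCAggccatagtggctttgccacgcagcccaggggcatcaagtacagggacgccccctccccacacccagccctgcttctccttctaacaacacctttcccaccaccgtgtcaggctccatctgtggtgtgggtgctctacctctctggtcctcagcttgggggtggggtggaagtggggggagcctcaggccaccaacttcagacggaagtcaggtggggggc
Il6, chr5:30012864-30013113, plus strand: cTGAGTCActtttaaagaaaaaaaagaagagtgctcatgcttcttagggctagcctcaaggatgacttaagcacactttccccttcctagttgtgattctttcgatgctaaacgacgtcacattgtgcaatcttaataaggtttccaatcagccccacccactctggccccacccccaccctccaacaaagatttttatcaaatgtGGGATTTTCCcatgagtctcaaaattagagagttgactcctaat
Nfkbia, chr12:55492648-55492897, minus strand: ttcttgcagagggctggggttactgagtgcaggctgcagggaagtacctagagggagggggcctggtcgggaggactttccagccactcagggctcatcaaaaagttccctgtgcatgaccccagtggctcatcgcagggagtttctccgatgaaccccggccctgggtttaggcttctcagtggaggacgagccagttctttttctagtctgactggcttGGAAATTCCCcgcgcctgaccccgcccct
Of 32851 such windows in the table, 3.90% held the NF-kB motif and 6.75% the AP-1 motif. The windows matched 9 of the 10 members. The NF-kB motif was found 44 bases before the start of Il6 and 29 before that of Nfkbia and 232 before the second start of Il1r1, and the AP-1 motif 249 bases before the start of Il6, 228 before that of Lif and 98 before the second start of Il11. Neither Il1rl1 window held either motif, which says only that these letters are not in these windows.

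Over all cells of a tag, Il1rl1 was at 101 CPM for tag 1 (96.9 to 105), 222 for tag 2 (210 to 235), 169 for tag 3 (162 to 175) and 536 for tag 4 (525 to 548), against 322 (317 to 328) in cells without a tag. From low to high the order was thus young, young with AngII, old, and old with siPiezo1, and no pair of neighbours overlapped in counting error. The ratio was 2.20 (2.05 to 2.36) for tag 2 against tag 1, 1.67 (1.58 to 1.77) for tag 3 against tag 1, and 2.41 (2.27 to 2.56) for tag 4 against tag 2. Of the other members, Nfkb1 alone had its means in the same order, over a narrower range. The summed VSMC markers were at 2530.5, 3174, 3117 and 1654 CPM in tags 1 to 4. They were thus lowest in tag 4, where Il1rl1 was highest, but highest in tag 2. The 8 markers of dividing cells summed to 838, 812, 547 and 906 CPM in tags 1 to 4. The part of either in the result was not tested.

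**Figure D1:**
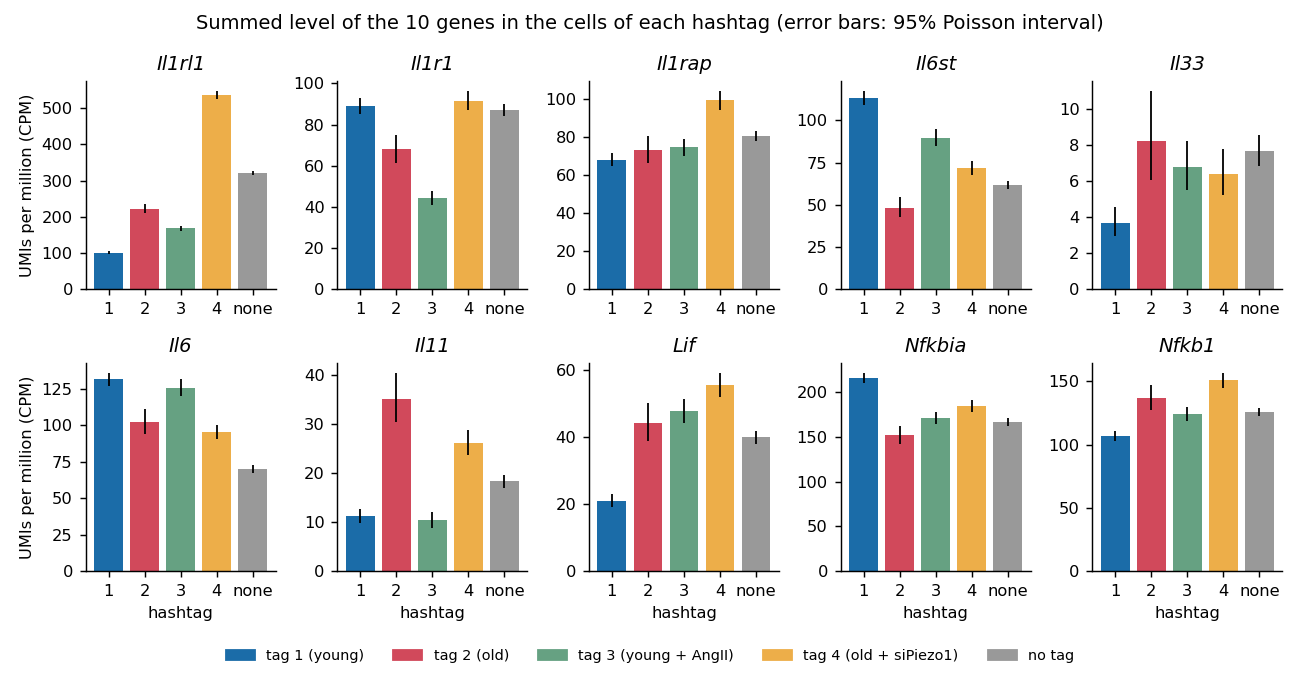
Summed level (UMIs per 1000000, CPM) of each gene in the cells of tags 1 to 4 and in cells without a tag, with 95% Poisson intervals for counting error. Il1rl1 is at 101, 222, 169 and 536 CPM in tags 1 to 4, whereas Il6st is highest in tag 1, at 113 CPM.

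Split by sex, the order of Il1rl1 did not hold. In the Y-linked cells it was at 72.9 CPM in tag 1, 194 in tag 2, 139 in tag 3 and 163 in tag 4, from 1700, 97, 833 and 211 cells. In the Xist cells it was at 308, 228, 305 and 652 CPM, from 154, 313, 94 and 1021 cells. In Y-linked cells tag 2 was thus above tag 1 (ratio 2.66, 2.29 to 3.07) and tag 4 a little below tag 2 (0.844, 0.714 to 0.999). In Xist cells tag 2 was below tag 1 (0.741, 0.660 to 0.832) and tag 4 well above tag 2 (2.86, 2.65 to 3.09). The AngII ratio was 1.90 (1.75 to 2.07) in Y-linked cells and 0.990 (0.858 to 1.14) in Xist cells. The Xist cells of tags 1 and 3 are few, and many were called doublets. Without doublets, tag 1 kept 55 of its 154 Xist cells, at 316 CPM, and 1393 Y-linked cells, at 45.1 CPM. The ratio of tag 2 to tag 1 was then 0.712 (0.592 to 0.862) in Xist cells and 4.25 (3.57 to 5.05) in Y-linked cells. Whether the Xist cells that carry tag 1 came from the young culture was not tested. Neither was the origin of the Xist cells of tag 3 or of the 97 and 211 Y-linked cells of tags 2 and 4.

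**Figure D2:**
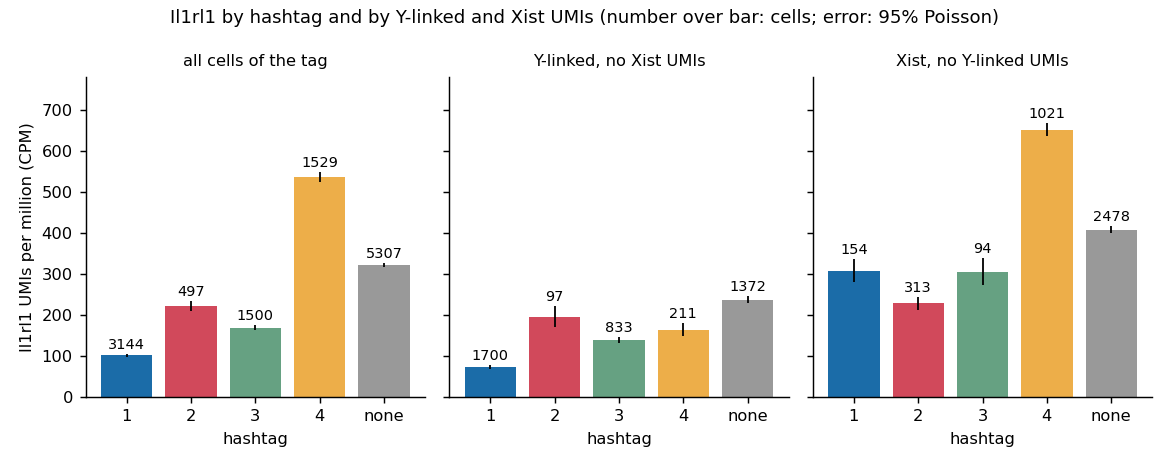
Il1rl1 (CPM, with 95% Poisson intervals) by hashtag in all cells, in cells with Y-linked and no Xist UMIs, and in cells with Xist and no Y-linked UMIs, with the number of cells over each bar. Tag 4 is highest among Xist cells, at 652 CPM, but stands at 163 CPM, below tag 2, among Y-linked cells.

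At equal depth the tags differed in the share of cells with an Il1rl1 UMI, and tag 4 had the highest mean per such cell. Each cell with at least 5000 UMIs was thinned to 5000, which left out 747, 21, 136 and 114 cells of tags 1 to 4. An Il1rl1 UMI was then found in 19.4% of tag 1 (17.9 to 21.1), 40.3% of tag 2 (35.9 to 44.9), 34.8% of tag 3 (32.2 to 37.3) and 59.6% of tag 4 (57.0 to 62.2), and before thinning in 23.0%, 52.9%, 43.9% and 67.6%. Free RNA alone could give such a UMI in up to 12.3% of cells, from an upper estimate of 11.2% free RNA based on the Xist UMIs of cells with Y-linked UMIs, so the share in tag 1 is the nearest to background. Cells with 5 or more Il1rl1 UMIs were 2.50%, 7.14%, 4.25% and 22.2% of tags 1 to 4, and the tenth of cells with most Il1rl1 held 79.5%, 56.8%, 59.1% and 44.8% of its UMIs. In tag 1 most of the receptor's UMIs were thus in few cells, and these values include cells called doublets. Before thinning, 2412 of the 3144 cells of tag 1 were not called doublets. They held 866 of its 2434 Il1rl1 UMIs, so most were in called doublets. A cell with an Il1rl1 UMI held on average 2.37 of them in tag 1, 2.42 in tag 3, 2.96 in tag 2 and 4.73 in tag 4. As measured, tags 1 and 3 differed in the share of such cells and hardly in this mean. The means include called doublets and UMIs from free RNA. Free RNA, at up to 12.3% of cells, could be a larger part of the 19.4% in tag 1 than of the 34.8% in tag 3. They therefore do not show whether the level per expressing cell was alike.

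**Figure D3:**
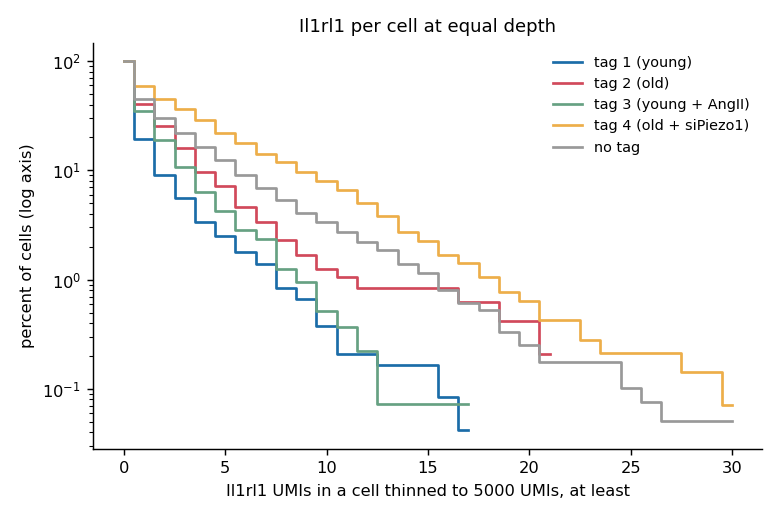
Share of cells (percent, log axis) with at least the number of Il1rl1 UMIs on the horizontal axis, after thinning each cell to 5000 UMIs. The curve of tag 4 lies above the others, with 22.2% of its cells at 5 or more UMIs against 2.50% in tag 1.

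Il33, the ligand (chr19:29925114-29960718, plus strand), was scarce. It gave 3.69 CPM for tag 1 (2.96 to 4.54), 8.25 for tag 2 (6.04 to 11.001), 6.76 for tag 3 (5.51 to 8.22) and 6.39 for tag 4 (5.22 to 7.76), and after thinning a UMI was found in 1.42% to 2.73% of cells, against 0.428% from free RNA alone. Tag 1 was below the other 3, which overlapped one another. The ratio of tag 2 to tag 1 was 2.24 (1.53 to 3.23), but it rests on 46 UMIs in tag 2, of which 1 cell held 9, and it was 2.77 (1.34 to 5.28) in Y-linked and 0.659 (0.261 to 1.75) in Xist cells. Il33 was below the 10 CPM over the 4 tags that was asked of a gene before it was counted as changed, so 9 of the 10 members entered the counts below.

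The co-receptor gene Il1rap (chr16:26581704-26730117, plus strand) varied least among the receptors. It stood at 68.2, 73.5, 74.7 and 99.5 CPM in tags 1 to 4. The level intervals of tags 1 to 3 overlapped, but the ratio of tag 3 to tag 1 was 1.10 (1.01 to 1.18). That ratio was 1.05 (0.945 to 1.16) in Y-linked and 0.829 (0.629 to 1.09) in Xist cells. Tag 4 was above tag 2 by 1.35 (1.21 to 1.51), a ratio of 1.30 (1.02 to 1.68) in Y-linked and 1.36 (1.18 to 1.56) in Xist cells. In Xist cells tag 2 was below tag 1, at 0.761 (0.619 to 0.938). Il1r1 (chr1:40225080-40317257, plus strand), which binds IL-1 alpha and IL-1 beta, was at 88.9 CPM for tag 1 (85.2 to 92.8), 68.0 for tag 2 (61.3 to 75.2), 44.4 for tag 3 (41.1 to 47.9) and 91.5 for tag 4 (86.9 to 96.3). The cells with AngII thus had the lowest level, at 0.499 (0.457 to 0.545) of tag 1, and 0.440 (0.389 to 0.496) in Y-linked cells, while in Xist cells that ratio was 0.879 (0.652 to 1.18). In contrast to Il1rl1, Il1r1 was below tag 1 in tags 2 and 3. In Xist and in Y-linked cells tag 4 was above tag 2 by 1.44 and 1.33. Both genes, and Nfkb1, overlap another annotated gene. Gm38070 and Gm43430 lie on the same strand as Il1r1 and Nfkb1, and their reads could have been split from those of these genes. Gm20319 lies on the strand opposite to Il1rap.

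Il6st (chr13:112464070-112510086, plus strand), the signalling subunit for IL-6 family cytokines, had the opposite order to Il1rl1 at the young end. It was at 113 CPM for tag 1 (109 to 117), 48.4 for tag 2 (42.8 to 54.5), 89.9 for tag 3 (85.1 to 94.8) and 71.8 for tag 4 (67.7 to 76.0). Old cells thus held 0.428 (0.376 to 0.485) of the young level, a ratio of 0.250 (0.173 to 0.349) in Y-linked and 0.698 (0.550 to 0.889) in Xist cells. Within the cell clusters described below that had at least 30 cells of both tags, it was nearer 1 than over all cells. It was 0.751 (0.470 to 1.25) in the cluster led by Clu and 0.725 (0.449 to 1.21) in that led by Hist1h1b. In that led by Crct1 it was 0.649 (0.460 to 0.895). Tag 4 was above tag 2 by 1.48 (1.30 to 1.70) in all cells, by 2.26 (1.56 to 3.36) in Y-linked cells and by 1.42 (1.21 to 1.68) in Xist cells, so the direction was shared by both classes. The clusters led by Clu (1.64, 1.30 to 2.10) and Hist1h1b (1.83, 1.43 to 2.38) shared it too. In those led by Crct1 (0.945, 0.664 to 1.37) and Actg2 (0.968, 0.634 to 1.48) the ratio was close to 1.

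Among the cytokines, Lif (chr11:4257557-4272514), which keeps embryonic stem cells undifferentiated, was lowest in tag 1. Its level was 21.0 CPM for tag 1 (19.2 to 22.9), 44.1 for tag 2 (38.8 to 49.98), 47.6 for tag 3 (44.2 to 51.2) and 55.4 for tag 4 (51.8 to 59.1). Tags 2 and 3 overlapped, and the ratios to tag 1 were 2.10 (1.79 to 2.45) and 2.27 (2.02 to 2.54). In Y-linked cells these ratios were 2.34 (1.69 to 3.17) and 2.67 (2.28 to 3.13), whereas in Xist cells they were 0.924 (0.702 to 1.23) and 0.952 (0.658 to 1.37). As for Il1rl1, the higher level over tag 1 was therefore measured in the Y-linked cells and not in the few Xist cells of tags 1 and 3. Within clusters the ratios to tag 1 were smaller. For tag 2 they were 0.842 (0.558 to 1.31, led by Clu), 0.512 (0.309 to 0.876, Hist1h1b) and 1.31 (0.868 to 1.93, Crct1). For tag 3 they were 1.17 (0.625 to 2.13, Clu), 0.892 (0.631 to 1.30, Lce1g), 1.55 (1.19 to 2.02, Crct1) and 1.10 (0.670 to 1.91, Ccne2). No interval reached the ratio over all cells.

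Il6 (chr5:30013114-30019981), the inducer of the acute-phase response, differed little over all cells of a tag. It was at 131 CPM for tag 1 (127 to 136), 102 for tag 2 (93.98 to 111), 125 for tag 3 (120 to 131) and 95.4 for tag 4 (90.7 to 100), with tags 1 and 3 overlapping and tags 2 and 4 overlapping below them. Tag 2 was at 0.779 (0.711 to 0.852) of tag 1 over all cells, 0.764 (0.630 to 0.917) in Y-linked and 1.03 (0.851 to 1.25) in Xist cells. Within clusters this ratio lay the other way or was close to 1. It was 2.43 (1.52 to 4.12) in the cluster led by Clu, with 51 cells of tag 1, and 1.84 (1.07 to 3.38) in that led by Hist1h1b, with 31. In that led by Crct1, with 326, it was 1.02 (0.812 to 1.28). Il6 was lowest, at 69.7 CPM, in the cells without a tag. Il11 (chr7:4772373-4782859, minus strand), a cytokine linked to fibrosis, was at 11.2 CPM for tag 1 (9.86 to 12.6), 35.1 for tag 2 (30.4 to 40.4), 10.3 for tag 3 (8.75 to 12.1) and 26.1 for tag 4 (23.6 to 28.7). Its ratio for tag 2 against tag 1 was 3.15 (2.61 to 3.80), but 1 cell held 91 of the 196 Il11 UMIs of tag 2. Without the cell with the most Il11 in each tag the ratio was 1.92, and that of tag 4 to tag 2 went from 0.742 to 1.28. The ratio of tag 2 to tag 1 was 1.5 (0.891 to 2.40) in Y-linked and 3.06 (1.99 to 4.92) in Xist cells, and 7.52 (5.86 to 9.69) without doublets. The ratios 3.06 and 7.52 include the cell of tag 2 with 91 UMIs. The Xist cells of tag 2 held 161 Il11 UMIs, its Y-linked cells 20, and its cells not called doublets 191. Neither ratio was recomputed without that cell. In Y-linked cells without doublets the ratio of tag 2 to tag 1 was 5.77 (3.17 to 10.2). It rests on 20 Il11 UMIs in tag 2 and 36 in tag 1, so the cell with 91 is not among them. Il11 was in few cells of any tag, 2.71% to 6.01% after thinning.

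Over all cells, the NF-kB pair differed little, and in opposite directions where tag 1 was compared. Nfkbia (chr12:55489410-55492647) was at 216 CPM for tag 1 (210 to 222), 152 for tag 2 (142 to 162), 172 for tag 3 (165 to 178) and 185 for tag 4 (179 to 192). Nfkb1 (chr3:135584655-135691547, minus strand), the gene of p105 and p50, was at 107 CPM for tag 1 (103 to 111), 137 for tag 2 (127 to 147), 124 for tag 3 (118 to 130) and 151 for tag 4 (145 to 157). Tag 1 thus had the most of the inhibitor's transcript and the least of the subunit's, with ratios of tag 2 to tag 1 of 0.702 (0.652 to 0.755) and 1.28 (1.18 to 1.39). Both ratios kept their direction in Y-linked cells (0.740 and 1.33) and in Xist cells (0.809 and 1.11, the latter with an interval of 0.944 to 1.32). For tag 4 against tag 2 both were higher, Nfkbia by 1.22 (1.13 to 1.32) and Nfkb1 by 1.10 (1.01 to 1.20).

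Counted against all 8463 genes at 10 CPM or more, a gene was called when its ratio was past 2-fold. For tag 2 against tag 1, 3 of the 9 members were called higher (Il1rl1, Il11, Lif), where 2.74% of all genes were, and 1 lower (Il6st), where 5.12% were. The 3 became 2 without Il11 in Y-linked cells and without the richest cell of each tag, 2 without Il1rl1 under both stricter tag rules (the highest tag at least 3 times the next, and cutoffs raised 1.5 times), 2 without Lif in cells of at least 5000 UMIs, and 1 (Il11) in Xist cells. In Y-linked cells without doublets all 3 were called. The call of Il11 in Xist cells includes the cell of tag 2 that held 91 of its Il11 UMIs, and was not recomputed without it. For tag 3 against tag 1, 1 was higher (Lif; 1.52% of all genes) and 1 lower (Il1r1; 3.62%). For tag 4 against tag 2, 1 was higher (Il1rl1; 0.366%) and none lower (0.284%). The median log2 ratio of the 9 was 0.11, -0.07 and 0.33 in the 3 comparisons, beside 0.03, 0.04 and 0.02 over all genes. Tag 1 enters the first 2 comparisons and tag 2 the first and the last, so they are not independent. The members were chosen with earlier results of these data known, so these counts beside the shares of all genes are a description only.

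**Figure D4:**
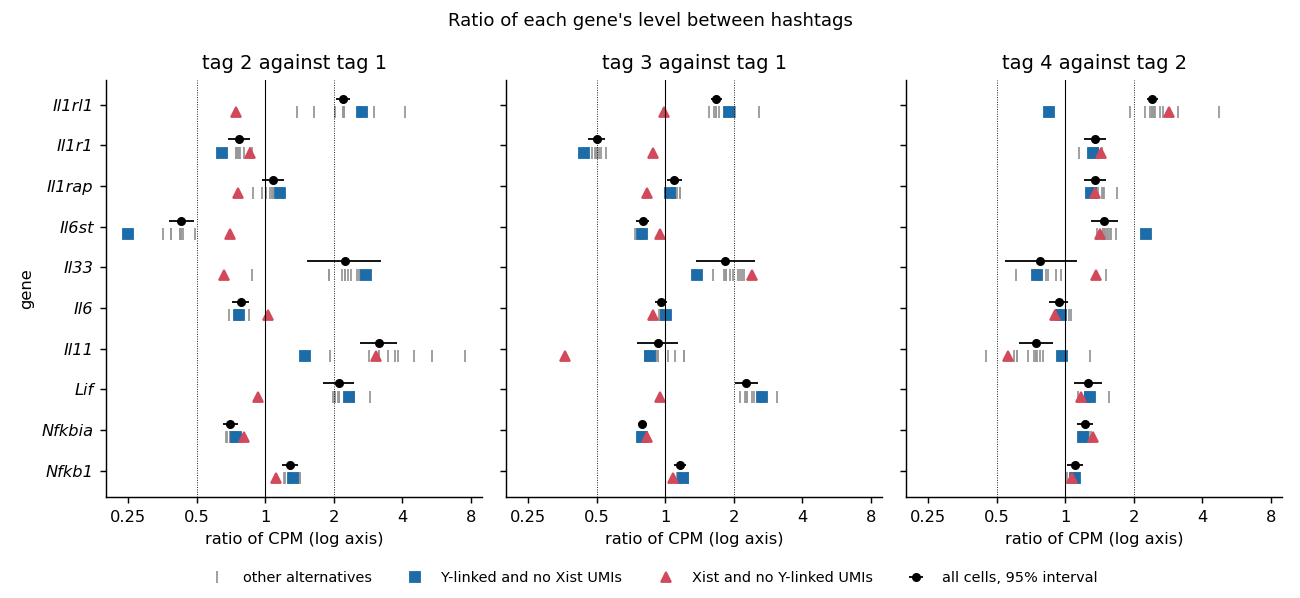
Ratio of CPM between tags (log axis) for each gene, with the 95% interval over all cells (black), the value in Y-linked cells (blue squares), in Xist cells (red triangles) and under other ways of choosing or counting cells (grey ticks), and dotted lines at 2-fold. For Il1rl1 the squares and triangles lie on opposite sides of 1 for tag 2 against tag 1 (2.66 and 0.741) and in that of tag 4 against tag 2 (0.844 and 2.86).

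The rest of these pathways was read from lists of 81 further genes, of which 77 were in the table and 48 reached 10 CPM. For tag 2 against tag 1 none was called higher and 6 lower, beside 2.74% and 5.12% of all genes. For tag 3 against tag 1 it was none and 7 (1.52% and 3.62%), and for tag 4 against tag 2 1 and none (0.366% and 0.284%). The 10 CPM were asked over the 4 tags together, where tag 1 held 24120561 of 60737987 UMIs and tag 2 5577355. A gene higher in tag 2 than in tag 1 thus missed them more easily than the reverse, as Il18rap, described at the end, did. This limits the count of higher genes. Of 9 other ligands of the IL-1 family on the lists, 5 were found by symbol. None of these reached 10 CPM, and Il1b had 1 UMI in the 4 tags together. The ligands not found by symbol were not measured. Of the 6 lower in tag 2, 4 are described here. Irak3, a brake on IL-1 receptor signalling, was at 42.4, 10.4, 12.7 and 12.2 CPM in tags 1 to 4, so tag 1 stood apart from the other 3. Myd88, the adaptor of ST2 and the IL-1 receptor, was at 14.9 CPM in tag 1 and 7.17 in tag 2 (0.482, 0.339 to 0.669). The secreted target genes Cxcl1 (0.322, 0.298 to 0.348) and Timp1 (0.482, 0.472 to 0.491) were also lower. In Y-linked cells the ratios of Irak3, Myd88, Cxcl1 and Timp1 were 0.191, 0.446, 0.273 and 0.440. In Xist cells that of Irak3 was 0.419 (0.255 to 0.687), and those of Cxcl1 (0.623, 0.534 to 0.727), Timp1 (0.589, 0.567 to 0.611) and Myd88 (0.617, 0.316 to 1.23) were short of 2-fold.

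With AngII, Irak3 (ratio to tag 1 0.300, 0.256 to 0.351) was again lower by more than 2-fold. Of the other genes lower with AngII, 5 are described here, namely the oncostatin M receptor gene Osmr (0.485, 0.449 to 0.524), the STAT3 feedback inhibitor Socs3 (0.424, 0.341 to 0.524), the IkB family gene Bcl3 (0.461, 0.382 to 0.553), Il1rapl1 (0.452, 0.406 to 0.503) and the chemokine gene Ccl7 (0.420, 0.412 to 0.428). In Y-linked cells these 6 lay between 0.297 (Irak3) and 0.440 (Osmr). In Xist cells none reached 2-fold: Ccl7 was at 0.605 (0.560 to 0.654) and Osmr at 0.616 (0.454 to 0.827), and the intervals of the other 4 held 1. Between tags 4 and 2, Lcn2, a secreted iron-scavenging protein induced by IL-1 and NF-kB, was at 1724 and 810 CPM (2.13, 2.06 to 2.20), while Cxcl1 (1.03, 0.947 to 1.12) and Timp1 (0.973, 0.952 to 0.995) were close to level. The ratio of Lcn2 was 3.42 (3.13 to 3.74) in Y-linked and 1.98 (1.91 to 2.06) in Xist cells.

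Across the 14 clusters of cells, made with the 10 genes left out of the clustering, the members took different patterns. Il1rl1 was at 1186 CPM (1150 to 1222) in the 429 cells of a cluster led by Lmo7, C1qtnf7 and Klra4, 4.27 times its level in all cells, and 91.1% of these cells held a UMI. This cluster held 13.1% of all Il1rl1 UMIs in 3.07% of all UMIs, and 279 of its cells were in tag 4, 3 in tag 2 and 5 in tag 1, with 387 Xist and 3 Y-linked cells. Il1rl1 was next in a cluster led by the proliferation genes Hist1h1b, Mki67 and Kif23 (491 CPM) and in the largest cluster, led by Clu, Csf3 and Sorcs1 (351 CPM). It was at 42.4 CPM in the cluster led by Ifit3, which held 1733 cells of tag 1, and at 98.7 in the cluster led by the contractile genes Actg2 and Cnn1. Other clusters with markers of dividing cells had less Il1rl1. It was at 32.4 CPM in that led by Cdkn3, with 527 of its 565 cells in tag 1, and at 145 in that led by Ccne2. In these, 8 and 7 of the 8 markers of dividing cells were above their level in the other cells.

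Within a cluster the tag ratios of Il1rl1 were uneven. For tag 4 against tag 2 they were 1.10 (1.01 to 1.21) in the cluster led by Clu, 1.21 (0.906 to 1.63) in that led by Actg2, 2.89 (2.60 to 3.23) in that led by Hist1h1b and 2.50 (1.97 to 3.22) in a cluster led by Crct1, Peg3 and S100a8, of which 82.0% were called doublets. Leaving out the cluster led by Lmo7 took the ratio over all cells from 2.41 to 1.92. For tag 2 against tag 1 the ratio was 1.04 (0.861 to 1.27) in the cluster led by Clu and 0.408 (0.343 to 0.487) in that led by Hist1h1b, with 51 and 31 cells of tag 1, and 0.405 (0.316 to 0.512) in that led by Crct1, with 326. None of these intervals reached the ratio of 2.20 over all cells. For tag 3 against tag 1, which was 1.67 over all cells, it was 0.741 (0.608 to 0.910) in the cluster led by Lce1g, which held 809 of the 1500 cells of tag 3 and 66 of tag 1. In the other clusters with at least 30 cells of both tags it was 0.931 (0.727 to 1.21) in that led by Ccne2, 1.34 (1.21 to 1.48) in that led by Crct1 and 2.44 (1.93 to 3.08) in that led by Clu.

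**Figure D5:**
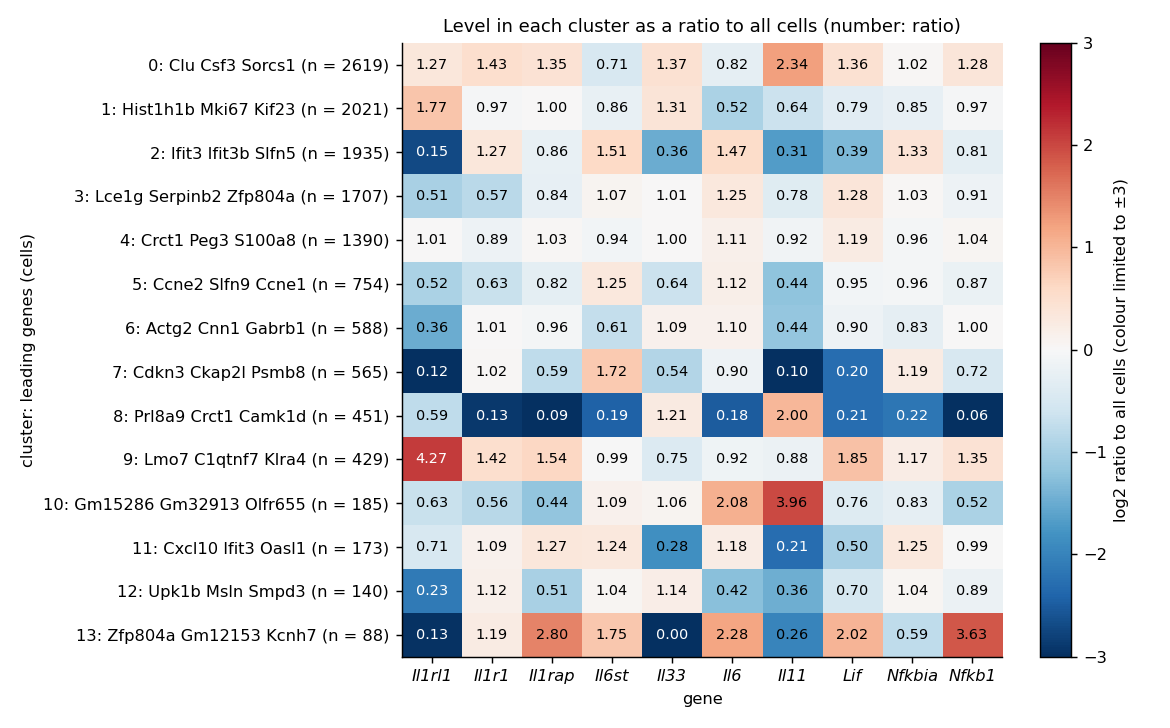
Level of each gene in each of 14 cell clusters as a ratio to its level in all cells, with the ratio written in each field, the colour on a log2 scale limited to 3 in each direction, and each cluster named by its leading genes and number of cells. Il1rl1 is at 4.27 in the cluster led by Lmo7, and Il11 at 3.96 in the cluster led by Gm15286.

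The other members were spread differently over the clusters. Il11 was highest in the cluster led by Gm15286 (68.8 CPM, 185 cells) and next in that led by Clu (40.7 CPM). Il6 was at 231 CPM in the smallest cluster, of 88 cells led by Zfp804a, where Nfkb1 (459 CPM) and Il1rap (224 CPM) were also highest, Il33 had no UMI and the median depth was 4246.5 UMIs. The cluster led by Hist1h1b had 52.3 CPM of Il6, 0.518 of its level in all cells. Il6st was highest in that small cluster (140 CPM) and in the cluster led by Cdkn3 (138 CPM), which is nearly all tag 1. In the 451 cells of a cluster led by Prl8a9, with a median of 3279 UMIs, 7 of the 10 members were below 0.5 of their level in all cells, and Il1rl1, Il33 and Il11 were not.

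As a description over the 13 clusters with at least 1% of cells, which share 1 library and differ in depth, the 5 genes most like Il1rl1 among 3276 were Prrx2 (Pearson r = 0.93 of log2 CPM), Fst (0.92), Aig1 (0.91), Odc1 (0.89) and Glrx (0.88). Prrx2 is a mesenchymal homeobox gene, Fst encodes the activin antagonist follistatin, and Odc1 the first enzyme of polyamine synthesis. Of the other members Lif was closest to Il1rl1 (0.66), and Il33 (0.33) and Il1rap (0.34) were far from it. Among the genes most like Il6 were Tmem30a (0.95), Txndc5 (0.86), P4hb (0.86) and Lman1 (0.85), of which P4hb and Txndc5 are protein disulphide isomerases and Lman1 a cargo receptor of the secretory pathway. Il33, on few UMIs, was most like Gm43154 (0.87), Plin2 (0.85), H2afj (0.82), Cd24a (0.81) and Eif1 (0.80).

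Cells with an Il1rl1 UMI were compared with cells without one inside each tag at 5000 UMIs. Called doublets were included, and in tag 1 most Il1rl1 UMIs lay in them, as given above. The part of doublets and of free RNA in these shares was not tested. Il1rap was found in 34.1% (29.8 to 38.6) of the cells of tag 1 with an Il1rl1 UMI and 23.5% (21.6 to 25.4) of those without, and in 36.1% (32.9 to 39.5) and 32.6% (28.7 to 36.6) in tag 4. Lif was found in 13.9% (10.9 to 17.4) and 6.78% (5.70 to 7.999) in tag 1, and in 25.1% (22.2 to 28.2) and 18.2% (15.1 to 21.6) in tag 4, but in tag 2 the shares were 19.8% (14.4 to 26.1) and 17.6% (13.4 to 22.5). Il6 went the other way in tags 1 to 3, found in 38.6%, 27.1% and 36.1% of cells with an Il1rl1 UMI and 43.5%, 37.0% and 42.1% of those without, with intervals that overlapped in each tag, and was level in tag 4 (32.7% and 32.4%). Ligand and receptor were rarely seen in the same cell: Il33 was found in 31 of 844 cells of tag 4 with an Il1rl1 UMI, which is 3.67% (2.51 to 5.17), and in 1.23% (0.494 to 2.51) of those without, whereas in tag 2 the shares were 2.08% (0.570 to 5.25) and 3.17% (1.46 to 5.93).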

How the data were processed

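The deposited file holds unnormalized counts of UMIs, produced by the authors with Cell Ranger according to the submitters' processing notes, per gene and barcode for the gene expression library (Chromium 3′ v3.1) and the TotalSeq-A hashtag library. It holds 32285 genes and 4 hashtags over 2472397 barcodes, unfiltered, and 138733332 gene UMIs. The aligner's settings, the genome build and the authors' cell filter were not stated in the sources used here. Gene coordinates are those of GENCODE vM21 (GRCm38), matched by gene ID for all 10 members. Counts are per gene, so transcript forms are not separated.

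From these counts, cells were chosen and tagged by the cutoffs given above, summed per tag and scaled to UMIs per 1000000 (CPM). Levels have exact Poisson intervals, ratios exact binomial intervals and shares of cells Clopper-Pearson intervals, all at 95% and for counting error only. The interval for a ratio was tested on simulated counts with 200 changed genes. Those counts were independent Poisson draws, so that test could not check the effect of an uneven spread of UMIs over cells. The 1 library and 1 culture per tag leave no test between tags. No paired analysis was possible because the tags carry no replicate numbers. A gene was called at 2-fold among genes of at least 10 CPM over the 4 tags. Scrublet (scanpy 1.11.5) called 3058 of 13045 cells doublets, which were kept unless stated. Seurat 5.3.0 clustered cells on 2000 variable genes, from which the 7 members among them were left out, with 30 principal components at resolution 0.8. Cells without a Y-linked or an Xist UMI, or with both, entered only the values over all cells. Free RNA was estimated at 11.2% from Xist in 2106 cells with at least 2 Y-linked UMIs and not called doublets, against barcodes of at most 100 UMIs, and is an upper estimate, since cells that hold RNA of 2 animals also carry Xist.

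The text names the 10 members, each gene of the pathway lists called in a comparison, the 5 genes most like Il1rl1, Il33 and Il6 over clusters (Pearson r of log2 CPM + 1, genes of at least 50 CPM), leading genes of clusters, and markers. A few genes that these rules name are not reported here. The members and lists were chosen with earlier results of these data known. Each ratio was recomputed under 11 alternatives, and 5 more chosen after seeing the data. The Il18bp values in the closing section and the single-cell share of Il11 were also chosen after their values were seen.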

Additional observations from a re-analysis of the deposited data

Results flagged for a closer look

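Il1rl1 went in opposite directions in the 2 classes of cells. For tag 2 (old) against tag 1 (young) its ratio was 2.66 in cells with Y-linked and no Xist UMIs and 0.741 in cells with Xist and no Y-linked UMIs. For tag 4 (old with siPiezo1) against tag 2 it was 0.844 and 2.86 in the same order. Each interval lay on its own side of 1, that of 0.844 narrowly, and the difference between the classes was not tested, since each tag is 1 culture. The culture of origin of the smaller class in each tag was not tested either.

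Cells without a tag, which enter no comparison, held more Il1rl1 (322 CPM) than either control culture, tag 1 (101 CPM) or tag 2 (222 CPM). Of these 5307 cells, 46.7% had Xist and no Y-linked UMIs, with Il1rl1 at 408 CPM, and 25.9% had Y-linked and no Xist UMIs, with Il1rl1 at 237 CPM. The culture these cells came from was not tested.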

How the results depend on the processing

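The ratio of Il1rl1 for tag 2 against tag 1 reversed in Xist cells (0.741, without doublets 0.712). It was 2.66 in Y-linked cells (without doublets 4.25), 4.10 without doublets, 3.01 as a mean of cells, 2.62 with free RNA subtracted, 2.60 thinned to 5000 UMIs and 2.02 in cells with at least 5000 UMIs. It fell to 1.64 with cutoffs raised 1.5 times and 1.37 where the highest tag was at least 3 times the next, a rule that left 179 cells in tag 2. For tag 3 against tag 1 it was 0.990 in Xist cells (without doublets 0.892), 1.90 in Y-linked cells (2.78), 2.58 without doublets, 2.02 as a mean of cells, 1.91 with free RNA subtracted, 1.82 thinned and 1.55 in cells with at least 5000 UMIs. For tag 4 against tag 2 it reversed in Y-linked cells (0.844, without doublets 0.788). It was 2.86 in Xist cells (3.12), 4.73 and 3.12 under the 2 stricter tag rules (3 times the next, raised cutoffs), 2.68 without doublets, 2.60 with free RNA subtracted, 2.24 as a mean of cells and 1.92 without the cluster led by Lmo7. The cause of these shifts was not tested.

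The number of members past 2-fold for tag 2 against tag 1 went from 4 to 1 in Xist cells, with or without doublets. The one left was Il11, with the cell of tag 2 that held 91 of its Il11 UMIs included. For tag 3 against tag 1 it went from 2 to 1 in Xist cells, with or without doublets, where the one left was Il11 (0.362 and 0.432) and neither Lif nor Il1r1, and to 1 (Lif) under both stricter tag rules. It rose to 3 without doublets, over all cells and in Y-linked cells, where Il1rl1 joined Lif and Il1r1. For tag 4 against tag 2 it went from 1 to 2 where the highest tag was at least 3 times the next and in Xist cells without doublets, and to 0 without the cluster led by Lmo7. The member added was Il11, called lower, and in Xist cells the same cell of tag 2 was included. In Y-linked cells, with or without doublets, the number stayed at 1, but the member was Il6st (2.26 and 2.20) and not Il1rl1. The highest Il1rl1 level of a cluster stayed within its interval under both other clusterings.

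Of 432 recomputed ratios of the other 9 members, 340 stayed within their interval, 79 left it and 13 changed side, counted where the interval over all cells excluded 1. Of 80 others, whose interval held 1, 17 lay on the other side of 1, and 2 of these had intervals that excluded it: Il1rap for tag 2 against tag 1 in Xist cells (0.761, from 1.08) and Il11 for tag 3 against tag 1 in Y-linked cells without doublets (1.76, from 0.925). The 13 are as follows. For tag 2 against tag 1, Il33 was 0.875 where the highest tag was at least 3 times the next, and in Xist cells, with and without doublets, Il33 was 0.659 and 0.267, Il6 1.03 and 1.47, and Lif 0.924 and 0.802. For tag 3 against tag 1, in the same cells, Il1rap was 0.829 and 0.843, Lif 0.952 and 0.998, and Nfkbia 1.22 without doublets. For tag 4 against tag 2, Il11 was 1.28 without the cell richest in it in each tag. Depth limits Il33 (339 UMIs in the 4 tags) and, in Xist cells, tags 1 and 3.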

Other observations

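Il18bp, which encodes a secreted decoy for interleukin-18 and is known as an interferon-induced gene, was close to absent outside tag 1. It was at 22.1 CPM for tag 1 (20.2 to 24.0), 0.717 for tag 2 (0.195 to 1.84), 0.937 for tag 3 (0.513 to 1.57) and 0.931 for tag 4 (0.521 to 1.54), and at 0.925 in cells without a tag. Il18bp did not reach 10 CPM over the 4 tags together, so it entered no count above. The ratio of tag 2 to tag 1 was 0.0325 (0.00883 to 0.0837), with 1 Il18bp UMI against 289 in Y-linked cells and 2 against 8 in Xist cells.

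Il18rap, a receptor chain for IL-18 that also missed 10 CPM, lay the other way. It was at 4.39 CPM in tag 1, 15.1 in tag 2, 6.63 in tag 3 and 17.4 in tag 4, a ratio of 3.43 (2.54 to 4.61) for tag 2 against tag 1, which was 4.20 (2.21 to 7.59) in Y-linked and 1.40 (0.767 to 2.70) in Xist cells. Its partner Il18r1 was below 1 CPM in every tag.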
